A study of Mus musculus with 4 samples.

Results

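Molecular chaperones of the heat shock protein families and their DnaJ cochaperones were examined in bone marrow cells sorted as B220+CD43+ from mice in which the histone deacetylase gene Hdac3 was targeted with Mb1-driven Cre. Hdac3 RNA stood at 47.1% of the WT level in these cells, and markers of other cell types were also present. Members were the entries of the expression table whose symbols name an HSP70, HSP110, HSP90, HSP60, HSP10 or small heat shock protein, a heat shock factor or a DnaJ protein of type A, B or C. Of the endoplasmic reticulum chaperones, only Hspa5, Hsp90b1, Dnajb9, Dnajb11 and Dnajc3 were left out, by name. This gave 73 genes of 23275 entries, of which 59 had been tested by the authors. The name rule also took in Hsf2bp, which encodes a protein that binds heat shock factor 2 and is not itself a heat shock factor.

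The cells carried the genotype Hdac3F/-Mb1cre+/- (Hdac3KO) or Hdac3+/+Mb1cre+/- (WT) on the C57BL/6 strain, so both groups expressed the Mb1-driven Cre recombinase, which is active from early B-cell stages onward. Polyadenylated RNA came from B220+CD43+ cells of mice aged 8 weeks, in 2 libraries per genotype, each made from a pool of 2 mice. The deposited table gives 1 FPKM value per gene and genotype (fragments per kilobase of transcript scaled to library size, so levels of different genes can be compared). No spread between libraries can therefore be shown, the depth behind each value is unknown, and every level below is the authors' group value. Fold changes are Hdac3KO over WT, and calls of higher or lower genes use a q-value below 0.05 in the authors' Cuffdiff test.

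Heat shock proteins bind unfolded or partly folded proteins and release them in cycles driven by ATP. HSP70 proteins are steered to their clients by J-domain proteins, which stimulate their ATPase, and are recharged by nucleotide exchange factors such as the HSP110 proteins. HSP90 takes over late folding steps of kinases and receptors, and HSP60 with its lid HSP10 folds proteins inside mitochondria. Under stress the factor HSF1 binds heat shock elements, arrays of GAA and TTC units, and induces some of these genes, while others are made constantly.

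The stress-inducible HSP70 genes Hspa1a and Hspa1b and the HSP70 gene Hspa2 fell in Hdac3KO cells, whereas the abundant constitutive chaperones were not called. Of the 59 tested members, 1 rose and 4 fell in the authors' deposited table, against 2.81% higher and 4.14% lower among all 12683 tested genes. The 5 called members are 8.47% of those tested, beside 6.95% of all genes, so the number of calls among the chaperones was near that of genes in general. The median log2 fold change of the tested members was -0.02, beside 0.03 for all tested genes, with 29 members above 0 and 30 below. Of all tested genes, 46.6% were below 0. All members together held 0.666% of the summed FPKM in Hdac3KO and 0.696% in WT cells.

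To show the sequence in front of the genes with the largest fall, the 250 bases before the RefSeq start sites of Hspa1a and Hspa1b (GRCm38.p6, minus strand of chromosome 17) are given 5′ to 3′, with the heat shock factor half-array GAANNTTC in capitals. The Hspa1a stretch is chr17:34972157-34972406 and the Hspa1b stretch is chr17:34959239-34959488.
Hspa1a: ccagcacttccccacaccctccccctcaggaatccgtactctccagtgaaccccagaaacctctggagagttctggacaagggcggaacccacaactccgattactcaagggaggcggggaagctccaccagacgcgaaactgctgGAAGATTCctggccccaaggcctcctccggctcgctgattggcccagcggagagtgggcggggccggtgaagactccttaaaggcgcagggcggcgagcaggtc
Hspa1b: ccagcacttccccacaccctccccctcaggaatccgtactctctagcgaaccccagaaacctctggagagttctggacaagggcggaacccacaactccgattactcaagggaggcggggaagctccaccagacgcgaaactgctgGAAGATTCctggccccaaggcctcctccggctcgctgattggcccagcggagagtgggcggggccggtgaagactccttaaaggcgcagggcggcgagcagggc
The stretches were identical at 247 of 250 aligned positions, or 98.8%. Both hold 1 match of GAANNTTC, whose first base lies 104 bases before the start site (position -104), and none of the form TTCNNGAA. Only exact matches were sought, so any run with an altered unit stays in lower case.

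A second set shows the longer exact arrays, which 3 of the searched members carried in this window. Hspd1 and Hspe1 are neighbours on chromosome 1, placed head to head with 215 bases between their deposited positions, and a run of overlapping units lies between them at chr1:55088059-55088076 on the plus strand. The array of Dnajb6 lies at chr5:29735852-29735864 on the plus strand. Capitals mark bases within GAANNTTC or TTCNNGAA.
Hspd1 and Hspe1: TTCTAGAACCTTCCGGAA
Dnajb6: GAATCTTCCGGAA
The search covered the 250 bases before each start site of the 57 members in the RefSeq promoter set used here. The other 16 members, among them Hspa8, Hspa9, Hsp90aa1, Hsp90ab1 and Hsf1, were not in it and were not searched. GAANNTTC and TTCNNGAA each read the same on both strands. GAANNTTC was found in 11 of these members and in 6.69% of all 32851 promoter windows, and TTCNNGAA in 7 members and 7.17% of all windows. The 3-unit array GAANNTTCNNGAA, or its reverse complement TTCNNGAANNTTC, which each contain both of the shorter forms, was found in Hspd1, Hspe1 and Dnajb6 and in 0.466% of all windows. Hspd1 and Hspe1 hold the same stretch of DNA and were each counted. A member counted with a match before any of its start sites, while the shares are over single windows, so these are unlike units. A match describes letters in a window and not a bound site.

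HSP70 proteins are the central ATP-driven chaperones, and their genes differed most among themselves. Hspa1a was 0.231 FPKM in Hdac3KO cells and 1.57 FPKM in WT cells, 6.78-fold lower. Hspa1b was 0.738 FPKM in Hdac3KO and 3.67 FPKM in WT cells, 4.97-fold lower. Both were rare transcripts in either genotype, and the authors' deposited table gives q = 0.0016 for each. An approximate 95% interval, taken from the fold change and the authors' test statistic, ran from 0.0586 to 0.371 of the WT level for Hspa1a and from 0.103 to 0.394 for Hspa1b.

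These genes encode nearly the same stress-induced HSP70 protein and lie 10120 bases apart on chromosome 17, Hspa1b from 34956429 to 34959238 and Hspa1a from 34969359 to 34972156 of the mm10 build. Of the 50-base windows in the annotated transcripts, 58.8% of those of Hspa1a also occurred in Hspa1b and 62.3% of those of Hspa1b in Hspa1a, so the split of fragments between the copies is uncertain. Summed over both genes, the level was 0.969 FPKM in Hdac3KO and 5.23 FPKM in WT cells, 0.185 of the WT value. An opposite-strand gene, Gm20481, overlaps 19.0% of the exonic bases of Hspa1a, and no source used here says whether counting was by strand.

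Hspa2, an HSP70 gene best known from male germ cells, was the most abundant of the called members. It was 5.14 FPKM in Hdac3KO cells and 13.8 FPKM in WT cells, 2.69-fold lower, with an interval from 0.243 to 0.568 of the WT level and q = 0.0016 in the authors' deposited table. Hspa2 lies on chromosome 12 from 76404176 to 76406936.

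Hspa8, the constitutive cytosolic HSP70 that also strips clathrin from vesicles, was the most abundant member. It was 1117 FPKM in Hdac3KO and 1072 FPKM in WT cells, rank 74 and rank 82 of all entries. Its fold of 1.04 had an interval from 0.594 to 1.83, so a moderate change in either direction could not be told from none. Hspa8 made up 29.5% of all chaperone FPKM in Hdac3KO and 26.3% in WT cells, while Hspa1a and Hspa1b stood at 0.0207% and 0.0661% of the Hspa8 level in Hdac3KO and at 0.146% and 0.342% in WT cells. Among its 50-base windows, 38.6% also occurred in transcripts of other genes, and 34.6% in those of Gm15459.

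The remaining HSP70 genes were not called. Hspa9, the mitochondrial HSP70, was 93.7 FPKM in Hdac3KO and 107.9 FPKM in WT cells. Hspa14, which works with Dnajc2 on the ribosome, was 51.2 FPKM in Hdac3KO and 62.0 FPKM in WT cells. Hspa13 was 11.5 FPKM in Hdac3KO and 13.1 FPKM in WT cells, and Hspa12b was 0.872 FPKM in Hdac3KO and 0.802 FPKM in WT cells. Hspa1l, the third gene of the chromosome 17 cluster and known from testis, was 1.59 FPKM in Hdac3KO and 1.24 FPKM in WT cells, a direction opposite to its neighbours. Its log2 fold change of 0.36 did not pass the test, and the opposite-strand Gm10501 overlaps 71.9% of its exonic bases. Of the 9 tested HSP70 genes, 0 rose and 3 fell in the authors' deposited table, beside 2.81% and 4.14% of all tested genes. At an unadjusted p under 0.05 these counts were again 0 and 3, beside 8.16% and 8.95% of all tested genes. Hspa1a and Hspa1b share much of their sequence, so these 3 are not fully separate counts.

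**Figure D1:**
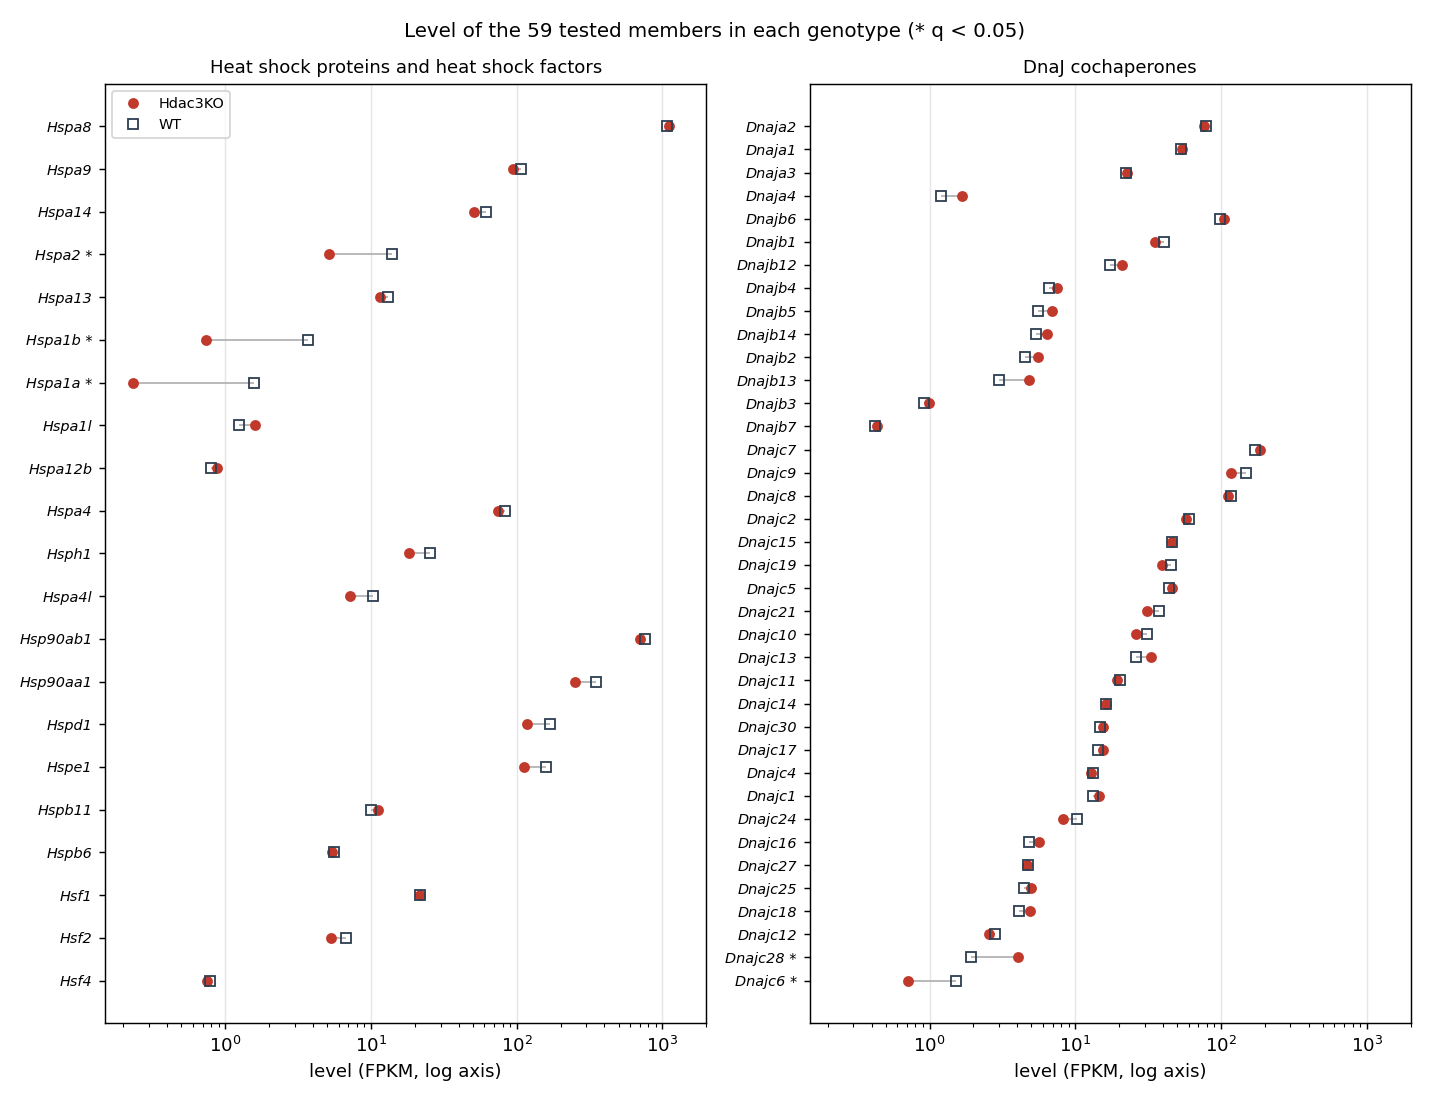
FPKM (log axis) of the 59 tested members, Hdac3KO as filled red circles and WT as open squares, 1 authors' group value each, ordered by family and WT level, with an asterisk at q < 0.05. The 2 values of most genes nearly coincide, while Hspa1a, Hspa1b, Hspa2 and Dnajc6 lie to the left in Hdac3KO and Dnajc28 to the right.

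HSP110 proteins recharge HSP70 with ATP, and all 3 of their genes had lower values in Hdac3KO cells without passing the test. Hsph1 was 18.2 FPKM in Hdac3KO and 25.6 FPKM in WT cells, and Hspa4l was 7.22 FPKM in Hdac3KO and 10.3 FPKM in WT cells. Hspa4, the constitutive one, was 75.0 FPKM in Hdac3KO and 82.6 FPKM in WT cells. The unadjusted p-values of Hsph1 and Hspa4l in the authors' deposited table were 0.0124 and 0.0133, and their q-values 0.123 and 0.128.

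The mitochondrial pair Hspd1 (HSP60) and Hspe1 (HSP10), whose start sites share the array printed above, had nearly the same fold. Hspd1, the barrel of the chaperonin, was 117.2 FPKM in Hdac3KO and 169 FPKM in WT cells. Hspe1, its lid, was 113 FPKM in Hdac3KO and 158 FPKM in WT cells. Their log2 fold changes were -0.53 and -0.48. Neither passed, with q = 0.101 for Hspd1 and q = 0.11 for Hspe1 in the authors' deposited table. Exons annotated for the pair overlap over 112 bases on opposite strands, and 39.7% of the Hspd1 windows and 18.4% of the Hspe1 windows also occur in other transcripts.

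HSP90 has a stress-inducible and a constitutive cytosolic form. The inducible Hsp90aa1 was 253 FPKM in Hdac3KO and 349 FPKM in WT cells, with an unadjusted p of 0.0468 and q = 0.281 in the authors' deposited table. The constitutive Hsp90ab1 was 702 FPKM in Hdac3KO and 758 FPKM in WT cells. Hsp90aa1 thus stood at 36.0% of the Hsp90ab1 level in Hdac3KO and at 46.0% in WT cells, a difference between the genes that was not tested. Of the Hsp90aa1 windows, 47.5% also occurred in transcripts of other genes.

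Across HSP70, HSP110, HSP90, HSP60 and HSP10, 13 of 16 tested genes had negative log2 fold changes, with a median of -0.37. Among all tested genes 46.6% were negative, and 54.5% of those with a mean of at least 100 FPKM. In the authors' Cuffdiff test 0 of the 16 rose and 3 fell at q under 0.05, beside 2.81% and 4.14% of all tested genes. At an unadjusted p under 0.05, 8 were lower and 0 higher, beside 8.95% lower and 8.16% higher of all tested genes. Of all 59 members, 9 were lower and 2 higher by this looser rule. Hspa1a and Hspa1b share much of their sequence, and exons of Hspd1 and Hspe1 overlap, so the 8 lower genes are not fully separate counts.

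The heat-inducible genes were also viewed as a set, put together with the values known. The set held Hspa1a, Hspa1b, Hspa4l, Hsph1, Hsp90aa1, Hspd1, Hspe1, Dnajb1, Dnaja1 and the untested Hspb1. In it, 8 of 9 tested genes had negative log2 fold changes, and 2 fell and 0 rose in the authors' deposited table. Among all tested genes, 46.6% were negative, 4.14% were called lower and 2.81% higher. The summed level of the set was 599 FPKM in Hdac3KO and 811 FPKM in WT cells, a ratio of 0.738. Most of both sums came from Hsp90aa1, Hspd1 and Hspe1, none of them called. Hspa1a and Hspa1b together gave only 0.969 FPKM in Hdac3KO and 5.23 FPKM in WT cells. The constitutive Hspa8, Hsp90ab1, Hspa4, Dnaja2 and Dnajc7 summed to 2158 FPKM in Hdac3KO and 2163 FPKM in WT cells, a ratio of 0.997. Members of both directions stayed outside these sets, among them Dnaja4 and Dnajb5 with positive and Hspa2 and Hsf2 with negative log2 fold changes. Because the genes were placed in these sets with their values in view, the contrast between the sets is a description.

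**Figure D2:**
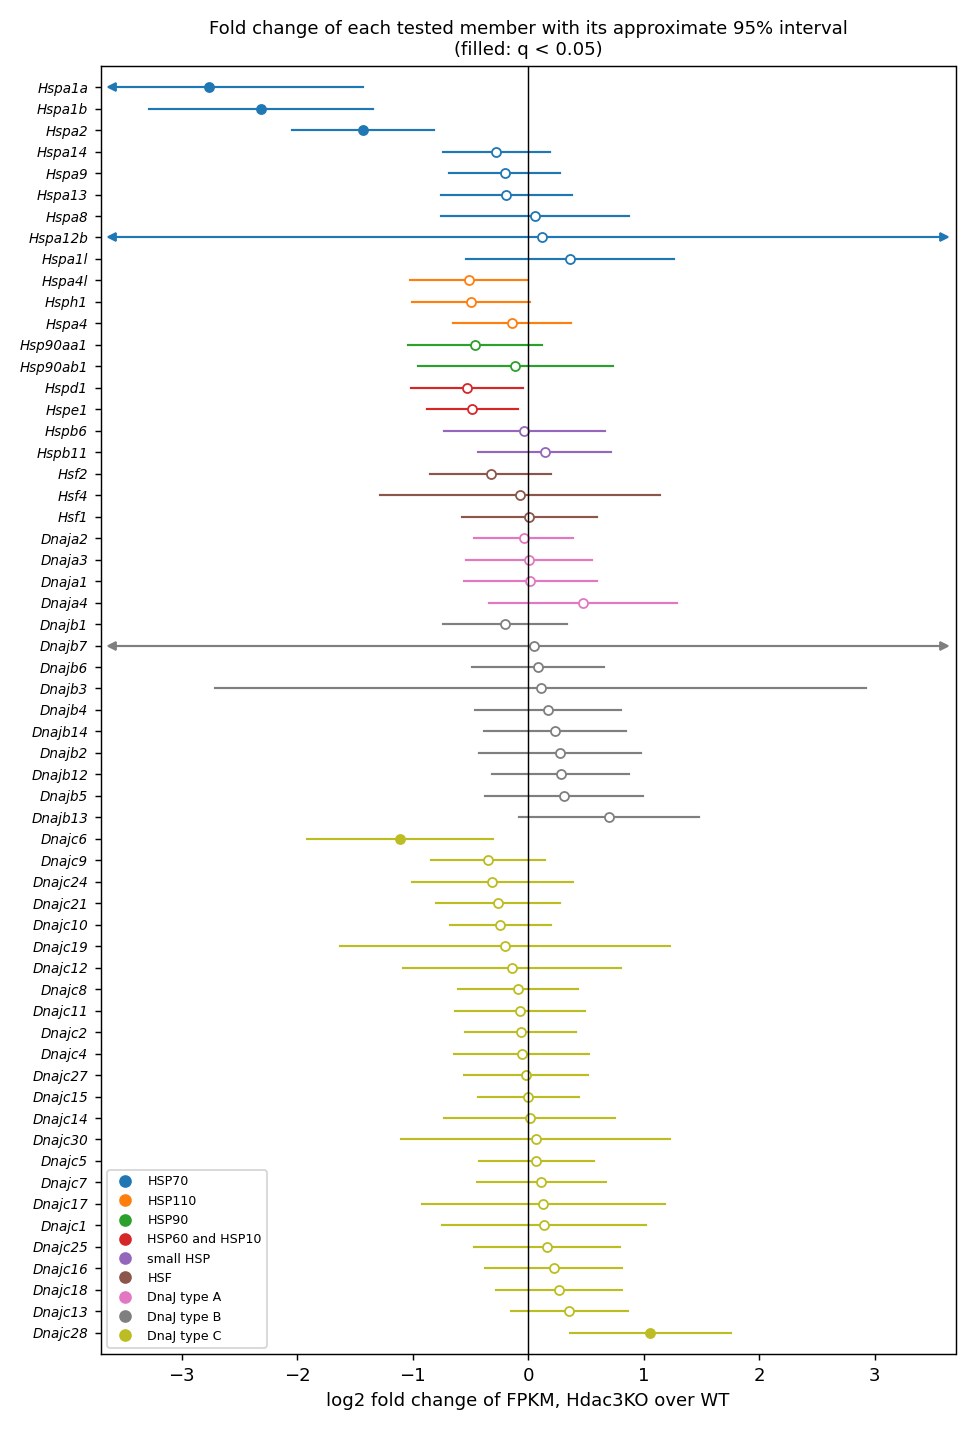
Log2 fold change of FPKM, Hdac3KO over WT, of each tested member by family, with an approximate 95% interval from the authors' test statistic; filled points have q < 0.05 and arrowheads mark intervals that leave the axis. Hspa1a at -2.76, Hspa1b at -2.31 and Hspa2 at -1.43 lie far from the other heat shock proteins, and Dnajc6 and Dnajc28 lie at -1.11 and 1.06.

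Small heat shock proteins, which hold unfolded proteins without ATP, were mostly at very low levels. Of 8 genes, 2 were tested and 6 were not. Hspb11, a part of the ciliary transport machinery, was 11.1 FPKM in Hdac3KO and 10.05 FPKM in WT cells, and Hspb6 was 5.44 FPKM in Hdac3KO and 5.56 FPKM in WT cells. Hspb1, the stress-induced member of the family, was 0.0773 FPKM in Hdac3KO and 0.102 FPKM in WT cells and was not tested.

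Heat shock factors, the transcription factors of the response, were not called. Hsf1, its main activator, was 21.8 FPKM in Hdac3KO and 21.6 FPKM in WT cells, a fold of 1.01 with an interval from 0.671 to 1.51. Hsf2 was 5.34 FPKM in Hdac3KO and 6.69 FPKM in WT cells, and Hsf4, known from the lens, was 0.754 FPKM in Hdac3KO and 0.791 FPKM in WT cells. In the authors' Cuffdiff test 0 of these 3 changed, and 0 had an unadjusted p under 0.05. The table measures Hsf1 RNA and holds no value for the activity of its protein.

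The 38 tested DnaJ genes included 1 that rose and 1 that fell, which is 5.26% called, beside 6.95% of all tested genes. Their median log2 fold change was 0.06, with 24 values above 0 and 14 below. Dnajc28, on chromosome 16 from 91614257 to 91618999, rose 2.08-fold to 4.04 FPKM in Hdac3KO cells, against 1.94 FPKM in WT cells. Its interval ran from 1.28 to 3.39 and its q was 0.0016 in the authors' deposited table. Dnajc6, or auxilin, which recruits HSP70 to clathrin coats, fell 2.16-fold to 0.707 FPKM in Hdac3KO, against 1.52 FPKM in WT cells. Dnajc6 lies on chromosome 4 from 101496648 to 101642799, and its q was 0.0104 in the authors' deposited table. With a normal approximation of the Cuffdiff statistic in place of the deposited p-value, neither gene was called. The values adjusted over all tested genes were then 0.0729 for Dnajc28 and 0.137 for Dnajc6.

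Type A and type B DnaJ proteins are the general partners of HSP70. Dnaja1 and Dnaja2, cytosolic partners of Hspa8, were 54.1 and 77.0 FPKM in Hdac3KO and 53.4 and 79.0 FPKM in WT cells. Dnajb1, the stress-inducible classical HSP40, was 35.1 FPKM in Hdac3KO and 40.4 FPKM in WT cells, with a fold of 0.868 and an interval from 0.599 to 1.26. Its value stood apart from the several-fold lower Hspa1a and Hspa1b, although the difference between these genes was not tested.

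Dnajb6, which keeps aggregation-prone proteins in solution and carries the array printed above, was 104.9 FPKM in Hdac3KO and 98.7 FPKM in WT cells. Among the 10 tested type B genes, with a median of 0.20, 9 had positive log2 fold changes, beside 6779 of all 12683 tested genes. Dnajb13, a component of ciliary axonemes, had the highest of them, with 4.84 FPKM in Hdac3KO and 2.97 FPKM in WT cells, an unadjusted p of 0.0228 and q = 0.182 in the authors' deposited table. The opposite-strand gene Ucp2 overlaps 11.2% of its exonic bases. Dnajb12, Dnajb2 and Dnajb5 had log2 fold changes of 0.28, 0.28 and 0.31, and Dnaja4 had 0.48, with 44.1% of its exonic bases overlapped by the opposite-strand Wdr61. In the authors' Cuffdiff test 0 of the 4 type A and 0 of the 10 type B genes were called, and 1 of these 14, Dnajb13, had an unadjusted p under 0.05. Some of the positive type B values lay under 1 FPKM or at a position shared with another entry, so their direction is uncertain.

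Type C proteins share only the J domain and bring HSP70 to single tasks. Dnajc7, which passes clients between HSP70 and HSP90, was the most abundant DnaJ gene, with 186 FPKM in Hdac3KO and 172 FPKM in WT cells. Dnajc9, a chaperone of histones H3 and H4, was 117.4 FPKM in Hdac3KO and 149 FPKM in WT cells, with an interval of its fold from 0.559 to 1.11 and q = 0.382 in the authors' deposited table. Dnajc8, found with splicing factors, was 111 FPKM in Hdac3KO and 118 FPKM in WT cells. None of these folds passed the test.

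Chaperones of the ribosome were not called. Dnajc2, which docks HSP70 at the exit of the ribosome, was 57.9 FPKM in Hdac3KO and 60.5 FPKM in WT cells, and Dnajc21, which acts in assembly of the large ribosomal subunit, was 31.1 FPKM in Hdac3KO and 37.3 FPKM in WT cells. Dnajc24, needed for the diphthamide modification of elongation factor 2, was 8.25 FPKM in Hdac3KO and 10.2 FPKM in WT cells. Of the proteins on membranes, Dnajc13 of endosomes was 33.2 FPKM in Hdac3KO and 25.9 FPKM in WT cells, with q = 0.35 in the authors' deposited table, and Dnajc5 of secretory vesicles was 46.0 FPKM in Hdac3KO and 43.7 FPKM in WT cells. In the mitochondrial inner membrane, Dnajc15 was 46.0 FPKM in Hdac3KO and 45.9 FPKM in WT cells and Dnajc19 was 39.3 FPKM in Hdac3KO and 45.2 FPKM in WT cells. The entry of Dnajc19 shares its position with another entry, as do those of 9 other tested members, among them Dnaja1, Dnajb6 and Hspa12b, so their values are less certain.

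The 14 members that were not tested all stood at or under 0.371 FPKM in both genotypes. They were 6 small heat shock protein genes, Hspa12a, Hsf3, Hsf5, Hsf2bp, Dnajb8, Dnajc22, Dnajc5b and Dnajc5g. Dnajc22, Dnajc5g and Hsf3 were listed at 0 in both genotypes, and Dnajb8, Dnajc5b and Hspb3 in WT alone.

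**Figure D3:**
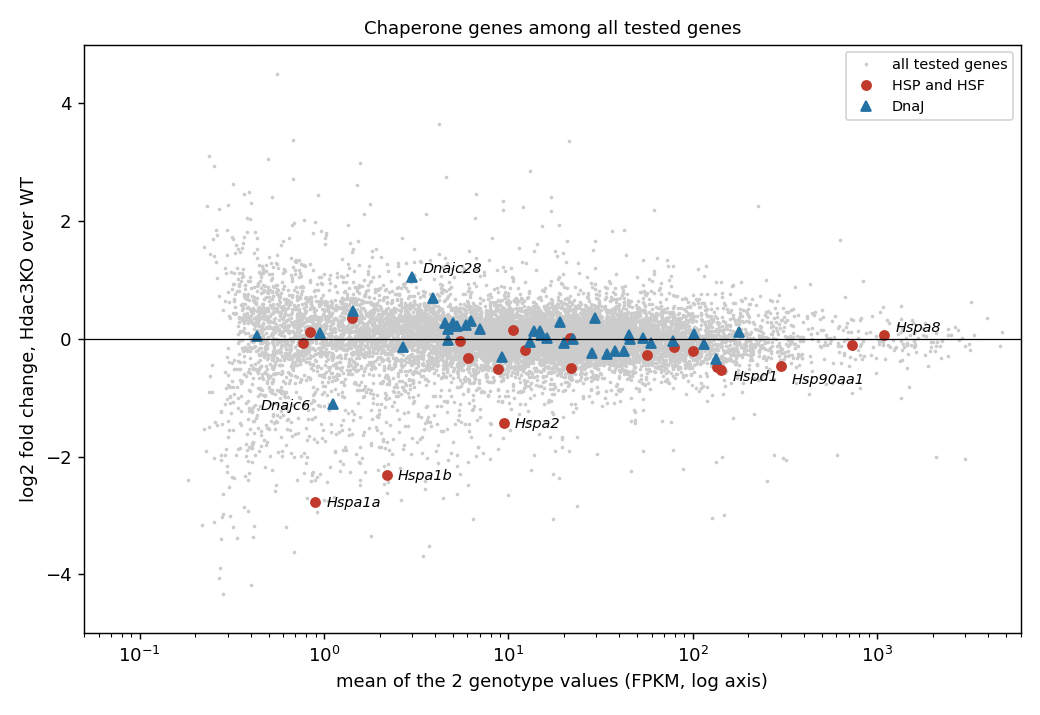
Log2 fold change, Hdac3KO over WT, against the mean FPKM of the genotypes (log axis) for all tested genes (grey), heat shock proteins and factors (red circles) and DnaJ genes (blue triangles); 40 tested genes at 0 in 1 genotype and 8 beyond 5 log2 units are not drawn. The 5 called members all had a mean under 10 FPKM, and the members above 100 FPKM lay between -0.53 and 0.11.

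Read by level, the 5 called members all stood under a mean of 10 FPKM. Of the 10 members with a mean of at least 100 FPKM and the 24 between 10 and 100 FPKM, 0 were called in the authors' Cuffdiff test, and 3 and 1 had a lower value at an unadjusted p under 0.05. Of the 20 between 1 and 10 FPKM, 1 rose and 3 fell, namely Dnajc28, Hspa1b, Hspa2 and Dnajc6. Of the 5 tested members under 1 FPKM, Hspa1a fell. Among all tested genes, the share called was 7.52% at 100 FPKM or above, 5.74% between 10 and 100 FPKM, 8.54% between 1 and 10 FPKM and 7.32% under 1 FPKM.

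Other genes of the chaperone system, taken from lists without the members, were largely not called. Of 18 cochaperones and nucleotide exchange factors of HSP70 and of 21 cochaperones of HSP90, 0 changed in the authors' Cuffdiff test, with medians of -0.07 and -0.03. At an unadjusted p under 0.05, 1 of the first was higher and 1 of the second lower. Stip1, which links HSP70 to HSP90, was 89.1 FPKM in Hdac3KO and 97.5 FPKM in WT cells, and the HSP90 cochaperone Ptges3 was 146 FPKM in Hdac3KO and 149 FPKM in WT cells. Of 13 tested subunits of the cytosolic chaperonin TRiC/CCT and of prefoldin, 12 had negative log2 fold changes, beside 46.6% of all tested genes. Their median was -0.24, and 0 were called at either rule. Cct2 was 208 FPKM in Hdac3KO and 229 FPKM in WT cells. Of 13 mitochondrial chaperones and proteases, 0 were called at either rule, with a median of -0.09, led in mean level over both genotypes by Yme1l1 at 50.8 FPKM in Hdac3KO and 53.6 FPKM in WT cells.

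Targets of heat shock factor outside the member names were 17 genes, of which 1 rose and 0 fell in the authors' deposited table. Serpinh1, a collagen chaperone, rose 1.58-fold to 12.1 FPKM in Hdac3KO cells, against 7.66 FPKM in WT cells, with q = 0.0386 in the authors' deposited table. The median of this list was -0.15. At an unadjusted p under 0.05 there were 2 higher and 3 lower genes, beside 8.16% and 8.95% of all tested genes. The chaperone lists overlap in some genes, and the higher and the lower cochaperone gene at this rule are counted again here. 

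**Figure D4:**
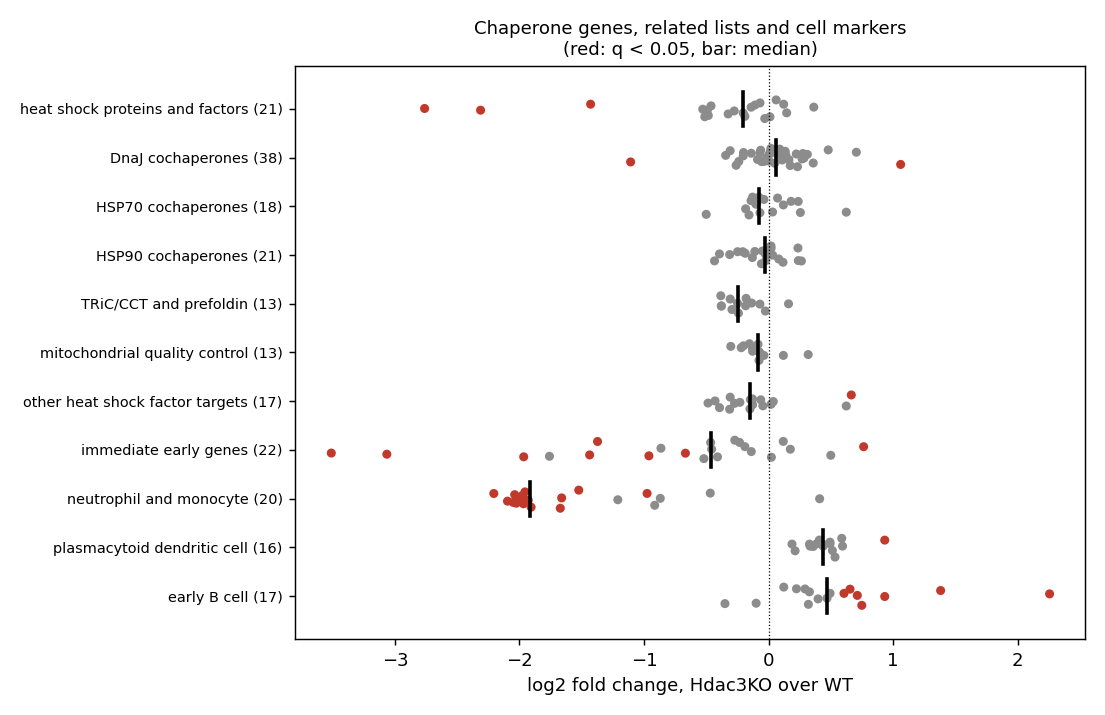
Log2 fold change, Hdac3KO over WT, of every tested gene (points, red at q < 0.05) in the member families, the related chaperone lists and marker lists, with the median as a bar and the number tested in parentheses. Heat shock proteins and factors centre at -0.20, DnaJ genes at 0.06, the related chaperone lists between -0.24 and -0.03, the immediate early genes at -0.46 and the neutrophil and monocyte markers at -1.92.

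Immediate early genes, which like Hspa1a and Hspa1b respond to handling of cells, were changed in part. Of 22 tested, 7 were called lower, 1 was called higher and 14 were not called. Among all tested genes, 4.14% were called lower and 2.81% higher. The median of their log2 fold changes was -0.46, beside a summed level of 717 FPKM in Hdac3KO and 814 FPKM in WT cells. Fos was 3.74 FPKM in Hdac3KO and 31.3 FPKM in WT cells, and Dusp1 was 5.64 FPKM in Hdac3KO and 22.02 FPKM in WT cells. Btg2, the most abundant of the called genes, went the other way and rose 1.70-fold, with 199 FPKM in Hdac3KO and 118 FPKM in WT cells and q = 0.0131 in the authors' deposited table. The part of handling in the fall of Hspa1a and Hspa1b was not tested.

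Markers of other cells moved as well. Of all tested genes, 2.81% were called higher and 4.14% lower. At an unadjusted p under 0.05 these shares were 8.16% and 8.95%. Of 20 tested neutrophil and monocyte markers, 15 fell and 0 rose in the authors' deposited table, and 17 were lower and 1 higher at an unadjusted p under 0.05. Their summed level was 2861 FPKM in Hdac3KO and 11195 FPKM in WT cells, with none at 0 in either genotype. The most abundant, S100a8, was 1172 FPKM in Hdac3KO and 4815 FPKM in WT cells. Of 16 plasmacytoid dendritic cell markers, all 16 had positive log2 fold changes, 7 were higher at an unadjusted p under 0.05 and 1, Dntt, rose in the authors' deposited table. Dntt is also among the early B cell markers. The 16 summed to 5080 FPKM in Hdac3KO and 3802 FPKM in WT cells. Calls were 0 higher and 1 lower of 8 erythroid markers, 2 higher and 0 lower of 16 T, NK and innate lymphoid markers, and 0 higher and 3 lower of 10 plasma cell markers. In bulk samples fewer cells of a type and less RNA per cell cannot be told apart, and the part of these cells in the values of Hspa1a, Hspa1b and Hspa2 was not tested.

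Of 17 early B cell markers, 7 rose and 0 fell in the authors' deposited table, beside 2.81% and 4.14% of all tested genes. Igll1, which encodes part of the surrogate light chain, was 834 FPKM in Hdac3KO and 509 FPKM in WT cells, and the B-lineage factor Pax5 was 121 FPKM in Hdac3KO and 79.7 FPKM in WT cells. Hdac3 was 22.03 FPKM in Hdac3KO and 46.8 FPKM in WT cells, 47.1% of the WT level. It was counted over the whole gene, which includes any exons that a deletion leaves. The genotype Hdac3F/- also carries a null allele in every cell, with or without active Cre. The part of this allele in the Hdac3 level was not tested.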

How the data were processed

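Per the submitters' processing notes, the mm10 build was used with Cuffdiff 2.1.1, after TopHat2 2.0.11 and Trimmomatic 0.32. No source used here gives their options, the gene models, strand use or scaling. In the deposited file stand the authors' FPKM, 1 value per genotype that combines its 2 libraries, and Cuffdiff's test statistic, a score. It also gives the p-value and q-value of the authors, the q-value adjusted over 12683 tested genes, with a smallest p of 5e-05. Nothing says whether the pools of a genotype were prepared separately, so p-values may rest on technical spread.

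Fold changes were computed here from FPKM without a pseudocount. Approximate 95% intervals used the log2 fold change divided by the test statistic as standard error and a normal quantile of 1.96. The adjustment of p-values used with the normal approximation and the counting of calls were tested on simulated statistics. The fold changes and intervals were not tested in this way. Exon overlaps and shared 50-base windows came from GENCODE M21 and promoters from RefSeq, both of the build of the files, with 16 members not in the promoter table.

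The members and the 12 lists were chosen with earlier results of these data known. Genes named were all called members, all tested members outside the DnaJ family, the 12 most abundant DnaJ genes and the 10 with the largest fold at 1 FPKM or more. From the lists, some called genes were named or, where none was called, some of the 4 most abundant. Untested members were named by level. Alternatives varied the q threshold, a 1.5-fold minimum, a 1 FPKM minimum, a pseudocount of 1 FPKM, centring, shared positions and the p-value. Biopython 1.88, matplotlib 3.10.9, scipy 1.17.1, numpy 2.4.6 and pandas 2.3.3 ran under Python 3.11.15.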

Additional observations from a re-analysis of the deposited data

How the results depend on the processing

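No paired analysis was possible because the table combines the libraries of each genotype, and for the same reason no library could be left out. By the normal approximation to the authors' test statistic, 0 members rose and 3 fell (Hspa1a, Hspa1b and Hspa2), with 136 higher and 335 lower among all genes, and Dnajc6 also missed q under 0.01. Of the 42 named members that were tested, 37 kept direction and call under every setting that could be computed. The 1.5-fold and 1 FPKM minimums, the pseudocount, centring and unshared positions reused the deposited q-values and could add no call. Calls that stayed the same under those settings are therefore no independent check. Centring on the median of all tested genes, a shift of 0.03 log2 units, turned Dnaja1 to -0.0077, Hsf1 to -0.015 and Dnajc15 to -0.023, none of them called. The number of lower members was 3 or 4 under every setting. The median ranged from -0.06 to -0.01 under the 1 FPKM minimum, the pseudocount, centring and unshared positions and was 0.0031 without Hspa1a and Hspa1b, and the ratio of summed FPKM was 0.891 without Hspa8, beside 0.931 with it; both were added after seeing the data. With an unknown depth, values under 1 FPKM are the least certain.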
